A study of Mus musculus with 9 samples.

Results

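The enzymes and the transporter that supply arginine to macrophages, turn it into nitric oxide and lead it on to polyamines were examined in RAW264.7 cells, a mouse macrophage line. The 10 genes were taken by name (Slc7a2, Nos2, Gch1, Ass1, Asl, Arg1, Arg2, Oat, Odc1 and Srm), as the rows of the deposited expression values whose Ensembl identifier carries that symbol in GENCODE M21, out of 28137 rows in all. All 10 had a row. The values come from 9 RNA-seq libraries, of which 3 are labeled NC-siRNA (control), 3 SFRP2-siRNA and 3 RAB6A-siRNA. SFRP2 is a secreted regulator of Wnt signaling and RAB6A is a small GTPase of the Golgi apparatus. The study asked how suppression of SFRP2 changes the transcriptome of inflammatory macrophages, and it does not describe the RAB6A siRNA group.

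By the labels, all 3 groups received 60 nM siRNA for 6 h, complete medium for 12 h and lipopolysaccharide (LPS, 100 ng/ml) for 24 h, although the titles carry the mark 6H. The methods of the study differ from the labels, with another siRNA amount, a longer time in fresh medium and IFN-γ beside LPS. No unstimulated library is among the 9, so the response to LPS itself cannot be read from these values. The titles number the SFRP2 siRNA libraries as siRNA-1 to siRNA-3, which are also the names of 3 different SFRP2 siRNAs in the study's supplement, and whether each library received another siRNA is not stated. The study speaks of independent experiments in general, but neither it nor the labels say that the libraries of a group came from separate cultures. If they did not, the p-values measure only the spread between these libraries, which may be technical.

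Arginine stands at a branch point in macrophages. Inducible nitric oxide synthase, encoded by Nos2 and switched on by LPS, makes nitric oxide and citrulline from it, while the arginases split it into urea and ornithine, the source of polyamines and proline. High Nos2 is the classic mark of inflammatory mouse macrophages and high Arg1 that of macrophages in tissue repair.

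The values are FPKM, fragments relative to gene length and library size, so that levels of different genes can be set side by side. The libraries held between 32758729 and 47149258 reads, recovered from the values themselves. Sfrp2, the gene targeted, was barely detected in any library, at 0.0213 ± 0.00140 FPKM (SD, n = 3) in the NC siRNA libraries, 0.0401 ± 0.0116 in the SFRP2 siRNA libraries and 0.0482 ± 0.0103 in the RAB6A siRNA libraries. It therefore gives no check of the SFRP2 label, and groups are named by their labels throughout. The word knockdown below likewise refers to the label of a group and not to a measured loss of the target. Rab6a was 25.7 ± 1.48 FPKM in the NC siRNA libraries and 20.7 ± 0.445 in the RAB6A siRNA libraries, a log2 fold change of -0.31 ± 0.06 (SE; limma, adjusted p = 0.0024), with no overlap between the groups. In this comparison 74.1% of all genes tested were called, 77.4% did not overlap, and 35.3% had a lower log2 fold change than Rab6a. All 9 macrophage markers examined were expressed, with a summed level between 4582 and 5050 FPKM in the NC siRNA libraries, 4054 and 4383 in the SFRP2 siRNA libraries and 3979 and 4142 in the RAB6A siRNA libraries. With RAB6A siRNA, 5 of the 9 had a lower mean than with NC siRNA, namely Lyz2 (lysozyme, 872 ± 24.0 FPKM with NC and 214 ± 23.0 with RAB6A siRNA), Csf1r (73.6 and 27.0), Spi1 (130 and 62.9), Fcgr1 (66.6 and 39.9) and Cd68 (1850 and 1682). Adgre1 was 56.3 in both, and Cd14 (1679 and 1943), Ptprc (18.3 and 20.6) and Itgam (23.1 and 24.7) had a higher mean. The part of these markers in the results was not tested. Of 11 markers of fibroblasts, epithelium, endothelium, lymphocytes and neutrophils, the highest value was 1.32 FPKM, and their sum ranged from 2.43 to 3.20 FPKM in the NC siRNA, 2.51 to 3.13 in the SFRP2 siRNA and 2.93 to 4.28 in the RAB6A siRNA libraries. In bulk samples such as these, fewer cells of a kind and less RNA per cell cannot be told apart.

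The 10 genes lay on 9 chromosomes, and their levels differed widely. Over the 9 libraries, Odc1 had a mean of 1495 FPKM and was number 21 of all genes by level, and Nos2 with 348 FPKM was number 103. Srm followed with 65.2 FPKM and Oat with 17.1 FPKM. Arg2 (6.70 FPKM), Asl (5.79) and Gch1 (4.59) were close together. Ass1 (0.549 FPKM), Arg1 (0.145) and Slc7a2 (0.0260) were the lowest, and the last of these rested on only 2 to 24 reads per library.

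**Figure D1:**
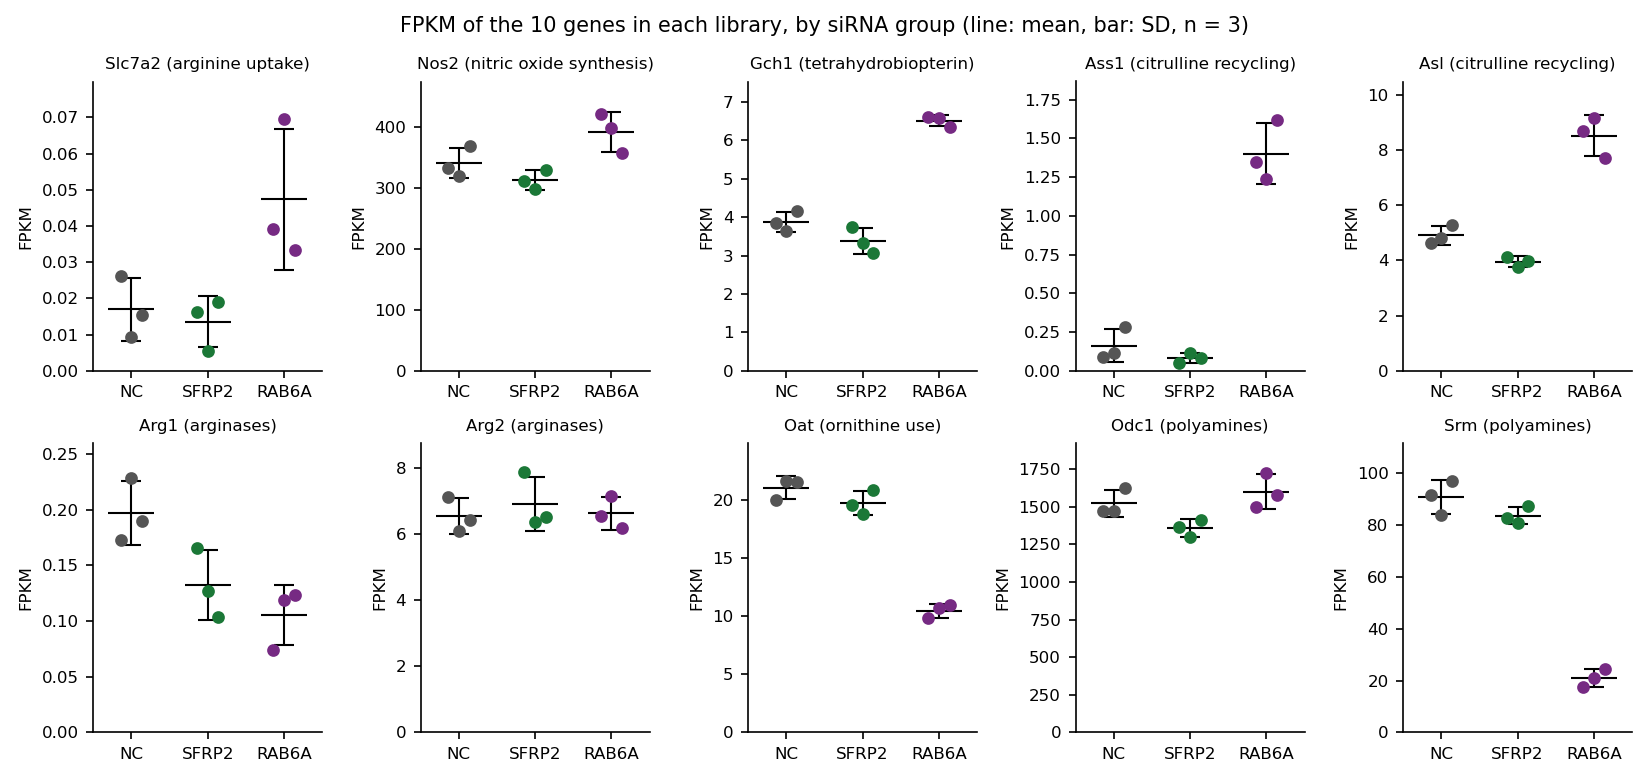
FPKM (vertical axes, each from 0) of the 10 genes in the NC, SFRP2 and RAB6A siRNA libraries; points are single libraries, the wide line is the mean and the bar the SD (n = 3). Gch1, Ass1 and Asl stand higher, and Oat and Srm lower, in all 3 RAB6A siRNA libraries than in any other library. The NC and SFRP2 siRNA groups overlap except for Asl, Arg1 and Odc1, where all SFRP2 siRNA libraries are below those of NC.

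Arginine enters the cell through cationic amino acid transporters, of which Slc7a2 encodes the one known to be induced in activated macrophages. Its chromosomal position on GRCm38 is chr8:40862396-40922308 (+ strand). Slc7a2 was measured at 0.0263, 0.00929 and 0.0154 FPKM in the NC siRNA libraries, at 0.0162, 0.00563 and 0.0189 in the SFRP2 siRNA libraries and at 0.0392, 0.0694 and 0.0334 in the RAB6A siRNA libraries. The RAB6A siRNA libraries were the highest 3 of the 9, from 10 to 24 reads, and those of NC and SFRP2 siRNA overlapped (exact two-sided permutation tests of NC against RAB6A siRNA, p = 0.1, and NC against SFRP2 siRNA, p = 0.6). With 3 libraries against 3, no exact p can be below 0.1. Slc7a2 was under the filter of the fit across all genes (a mean of 0.5 FPKM over the 6 libraries compared) in all 3 comparisons. On the opposite strand, the lincRNA Gm26584 covers 635 of its 9135 exon bases, and whether the counting used strand is not stated.

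Nos2, on chr11:78920787-78960254 (+ strand), was the second most abundant of the 10. It was 333, 320 and 368 FPKM in the NC siRNA libraries, 311, 297 and 329 in the SFRP2 siRNA libraries and 421, 397 and 356 in the RAB6A siRNA libraries. The SFRP2 siRNA values overlapped with those of NC, the third RAB6A siRNA library lay within the range of NC, and all 3 RAB6A siRNA libraries lay above all 3 of SFRP2 siRNA. The log2 fold change, on the scale of log2(FPKM + 0.1), was -0.12 (95% interval -0.28 to 0.04, limma, adjusted p = 0.372) for SFRP2 siRNA against NC. For RAB6A siRNA against NC it was 0.20 (-0.0007 to 0.41, limma, adjusted p = 0.0665). Between the knockdowns Nos2 was higher with RAB6A siRNA by 0.32 ± 0.08 (SE; limma, adjusted p = 0.00924), and this direction was reversed by quantile normalization, to -0.35. The same holds for RAB6A siRNA against NC, where quantile normalization gave -0.38 (limma, adjusted p = 0.00115), whereas without NC library 3 or without RAB6A library 3 the difference was called as higher (0.26, adjusted p = 0.0442, and 0.27, adjusted p = 0.0181). It was also called as higher by limma with all 9 libraries in a single fit (0.20, adjusted p = 0.0439), by voom (0.20, adjusted p = 0.0301) and after the correction for GC content and gene length without the replicate block (0.30, adjusted p = 0.0102) and with it (adjusted p = 0.0336). The summed FPKM of all genes, which quantile normalization makes equal, was between 361817 and 373756 in the NC and SFRP2 siRNA libraries and between 399883 and 410877 in the RAB6A siRNA libraries, and its part in the result was not tested.

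Gch1 encodes GTP cyclohydrolase 1, the rate-limiting enzyme for tetrahydrobiopterin, a cofactor without which Nos2 makes no nitric oxide. It was 3.84, 3.64 and 4.15 FPKM in the NC siRNA libraries, 3.74, 3.32 and 3.06 in the SFRP2 siRNA libraries and 6.61, 6.58 and 6.33 in the RAB6A siRNA libraries. All RAB6A siRNA libraries stood above the other 6, whereas NC and SFRP2 siRNA overlapped. Against NC, Gch1 rose by 0.73 ± 0.07 (log2, SE; limma, adjusted p = 6.6e-05) with RAB6A siRNA, 1.68 times the NC level. The change with SFRP2 siRNA was -0.20 (95% interval -0.42 to 0.02, limma, adjusted p = 0.307).

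Ass1 and Asl encode the enzymes that turn citrulline back into arginine. Argininosuccinate synthase (Ass1) joins citrulline with aspartate, and argininosuccinate lyase (Asl) releases arginine from the product. Ass1 was 0.0896, 0.114 and 0.283 FPKM in the NC siRNA libraries, 0.0511, 0.117 and 0.0835 in the SFRP2 siRNA libraries and 1.34, 1.24 and 1.62 in the RAB6A siRNA libraries. These values rest on 9 to 29 reads per NC library, 5 to 11 per SFRP2 siRNA library and 113 to 128 per RAB6A siRNA library, and every RAB6A siRNA library was far above the rest. Ass1 was called as higher with RAB6A siRNA (log2 fold change 2.58 ± 0.33, SE, limma, adjusted p = 0.000233, 8.64 times the NC mean), but it passed the filter only through this group, so that it had to differ to be tested at all. The size depends on the treatment of low values, from 1.05 with a pseudocount of 1 to 3.24 with voom on the recovered reads. In SFRP2 siRNA against NC it was not tested across genes, and the exact two-sided permutation test gave p = 0.3.

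Asl was 4.61, 4.82 and 5.29 FPKM in the NC siRNA libraries, 4.13, 3.75 and 3.98 in the SFRP2 siRNA libraries and 8.67, 9.15 and 7.71 in the RAB6A siRNA libraries. The 3 groups did not overlap, with SFRP2 siRNA lowest and RAB6A siRNA highest. Asl rose by 0.78 ± 0.09 (log2, SE; limma, adjusted p = 0.000128) with RAB6A siRNA against NC, 1.73 times the NC level. With SFRP2 siRNA the difference was -0.30 (95% interval -0.48 to -0.13), with an unadjusted p of 0.00481 from limma and an adjusted p of 0.178, which did not pass the threshold. Asl and Ass1 were both highest in the RAB6A siRNA libraries, but not by the same factor: the Asl to Ass1 ratio was 37.5 ± 16.9 with NC siRNA and 6.20 ± 1.33 with RAB6A siRNA (SD, n = 3).

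The arginases compete with Nos2 for arginine. Arg1, the cytosolic enzyme, was 0.173, 0.228 and 0.190 FPKM in the NC siRNA libraries, 0.166, 0.127 and 0.103 in the SFRP2 siRNA libraries and 0.0741, 0.119 and 0.123 in the RAB6A siRNA libraries. Every library of both knockdowns was below every NC library, and the knockdowns overlapped. These levels come from 16 to 24 reads per NC library, 8 to 15 per SFRP2 siRNA library and 6 to 10 per RAB6A siRNA library, and Arg1 was under the filter in all comparisons (exact two-sided permutation tests, p = 0.1 for each knockdown against NC, the smallest p possible).

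Arg2, the mitochondrial arginase, was the more abundant by far, at 7.14, 6.09 and 6.42 FPKM in the NC siRNA libraries, 7.87, 6.38 and 6.51 in the SFRP2 siRNA libraries and 6.55, 7.16 and 6.18 in the RAB6A siRNA libraries. All 3 groups overlapped. The log2 fold change against NC was 0.07 (95% interval -0.16 to 0.31, limma, adjusted p = 0.705) with SFRP2 siRNA and 0.02 (-0.19 to 0.22, adjusted p = 0.861) with RAB6A siRNA. On the opposite strand, Vti1b shares 285 of the 1428 exon bases of Arg2 and was 37.9 ± 1.34 FPKM in the NC siRNA and 69.1 ± 6.70 FPKM in the RAB6A siRNA libraries. Without knowing whether the counting used strand, reads of this stretch cannot be told apart.

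Within a library, the ratio of Nos2 to the summed arginases does not depend on a factor common to all genes of that library. Quantile normalization is not such a factor, and with it RAB6A siRNA against NC gave -0.38 for Nos2 and 0.04 for Arg2. The ratio below is that of the FPKM as deposited. It was 45.5, 50.6 and 55.6 in the NC siRNA libraries, 38.7, 45.7 and 49.8 in the SFRP2 siRNA libraries and 63.6, 54.5 and 56.6 in the RAB6A siRNA libraries. The groups overlapped except that the RAB6A siRNA libraries were all above those of SFRP2 siRNA. Since Arg1 contributed little to the sum, this ratio is in effect that of Nos2 to Arg2.

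Ornithine, the product of the arginases, has several ways out. Ornithine aminotransferase (Oat) leads it toward proline and glutamate, ornithine decarboxylase (Odc1) turns it into putrescine, and spermidine synthase (Srm) extends putrescine to spermidine. Oat was 19.9, 21.6 and 21.5 FPKM in the NC siRNA libraries, 19.5, 18.8 and 20.8 in the SFRP2 siRNA libraries and 9.79, 10.7 and 10.9 in the RAB6A siRNA libraries. The RAB6A siRNA libraries stood apart below the other 6, and NC and SFRP2 siRNA overlapped. Oat fell by 1.00 on the log2 scale (SE 0.07, limma, adjusted p = 9.94e-06) with RAB6A siRNA, to 0.498 times the NC level, so that it lies at the very edge of the fold threshold of the study. With SFRP2 siRNA the difference was -0.09 (95% interval -0.23 to 0.04, limma, adjusted p = 0.414).

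Odc1 was 1473, 1469 and 1627 FPKM in the NC siRNA libraries, 1366, 1298 and 1414 in the SFRP2 siRNA libraries and 1499, 1728 and 1578 in the RAB6A siRNA libraries. It took 0.519 ± 0.0307% of the reads of an NC siRNA library (SD, n = 3), 0.463 ± 0.0198% with SFRP2 siRNA and 0.545 ± 0.0396% with RAB6A siRNA. The SFRP2 siRNA libraries lay below all others, and NC and RAB6A siRNA overlapped. Against NC, the log2 fold change was -0.16 (95% interval -0.32 to -0.01, limma, unadjusted p = 0.0429, adjusted p = 0.259) with SFRP2 siRNA and 0.07 (-0.14 to 0.28, adjusted p = 0.493) with RAB6A siRNA. Between the knockdowns it was 0.24 ± 0.09 (SE; limma, adjusted p = 0.0453), higher with RAB6A siRNA, a call that was lost when any SFRP2 siRNA library, RAB6A library 2 or RAB6A library 3 was left out (adjusted p between 0.062 and 0.155) and that quantile normalization turned to -0.01. The call was also lost with a pseudocount of 0.01 (limma, adjusted p = 0.0532), median-of-ratios scaling (0.0543), the replicate block (0.0836) and no filter (0.296).

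Srm was 91.9, 84.0 and 97.1 FPKM in the NC siRNA libraries, 82.9, 81.0 and 87.3 in the SFRP2 siRNA libraries and 17.6, 20.8 and 24.4 in the RAB6A siRNA libraries. The RAB6A siRNA libraries were far below the other 6, which overlapped. Srm fell by 2.13 on the log2 scale (SE 0.12, limma, adjusted p = 4.78e-06) with RAB6A siRNA, to 0.230 times the NC level, and 1.8% of all genes tested had a lower log2 fold change. With SFRP2 siRNA the difference was -0.12 (95% interval -0.27 to 0.03, limma, adjusted p = 0.353), which turned to 0.02 once GC content and gene length were corrected for. The ratio of Odc1 to Srm, neighbours in the pathway, was 16.0, 17.5 and 16.8 in the NC siRNA libraries, 16.5, 16.0 and 16.2 in the SFRP2 siRNA libraries and 85.4, 82.9 and 64.7 in the RAB6A siRNA libraries, with a mean of 77.7 ± 11.3 (SD, n = 3) in the last.

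**Figure D2:**
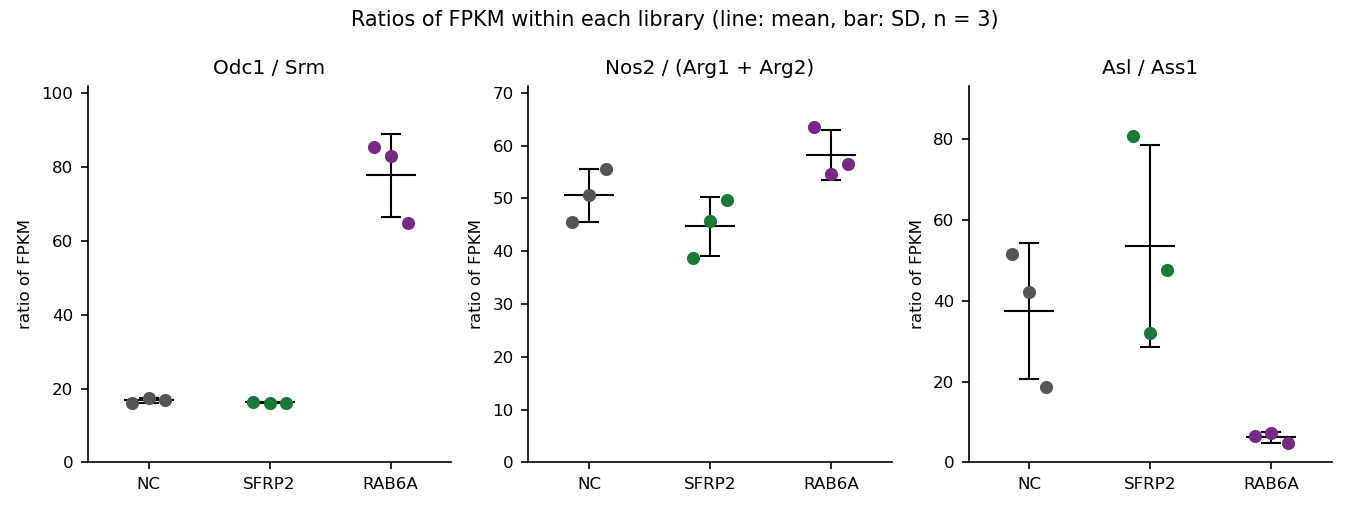
Ratios of FPKM within each library (vertical axes, each from 0) for Odc1 to Srm, Nos2 to the sum of Arg1 and Arg2, and Asl to Ass1; points are libraries, the wide line is the mean and the bar the SD (n = 3). The Odc1 to Srm ratio is at least 64.7 in the RAB6A siRNA libraries and at most 17.5 in the others, and the Asl to Ass1 ratio is lowest in the RAB6A siRNA libraries.

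Taking the genes as a set, SFRP2 siRNA against NC gave no call in limma. The study itself, with another method (DESeq2), reported differentially expressed genes in both directions for SFRP2 siRNA in polarized RAW264.7 cells. The difference between the methods was not tested. Of the 10 genes, 7 passed the filter and 0 had an adjusted p under 0.05 in limma, while 0.0% of the 12017 genes tested passed it, the smallest adjusted p of any gene being 0.140. At an unadjusted p under 0.05, limma gave 2 of the 7 (Asl and Odc1, both lower), beside 18.5% of all genes, and voom on the recovered reads called 0 of the 7 at an adjusted p under 0.05. The groups did not overlap for 2 of the 7 genes tested, beside 24.7% of all genes tested. The mean was lower with SFRP2 siRNA for 6 of the 7, all but Arg2, and their median log2 fold change was -0.12, beside -0.01 over all genes.

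In RAB6A siRNA against NC, most genes of the transcriptome differed. Of the 10 genes, 8 passed the filter and 5 were called by limma (Ass1, Asl and Gch1 higher, Oat and Srm lower), beside 74.1% of the 12712 genes tested. With a log2 fold change over 1 in either direction as well, 3 of the 8 were called (Ass1, Srm and Oat), beside 30.1% of all genes, and Ass1 passed the filter only through the RAB6A siRNA group. The groups did not overlap for 5 of the 8, beside 77.4%. The median log2 fold change of the 8 was 0.14, beside 0.03 over all genes.

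RAB6A siRNA against SFRP2 siRNA compares the knockdowns with each other, and of the 8 genes that passed the filter 7 were called by limma, all but Arg2, beside 73.4% of the 12764 genes tested. With the fold threshold it was 3 of the 8 (Ass1, Asl and Srm), beside 31.1% of all genes. Higher with RAB6A siRNA were Ass1 (log2 fold change 3.04 ± 0.29, SE), Asl (1.08 ± 0.08), Gch1 (0.93 ± 0.09), Nos2 and Odc1, and lower were Srm (-2.01 ± 0.11) and Oat (-0.91 ± 0.07). For Nos2 and Odc1 the direction was reversed under quantile normalization, with which 3 of the 8 genes were called as higher and 3 as lower. As before, Ass1 passed the filter only through the RAB6A siRNA group. The comparisons of each knockdown with NC share the NC libraries.

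**Figure D3:**
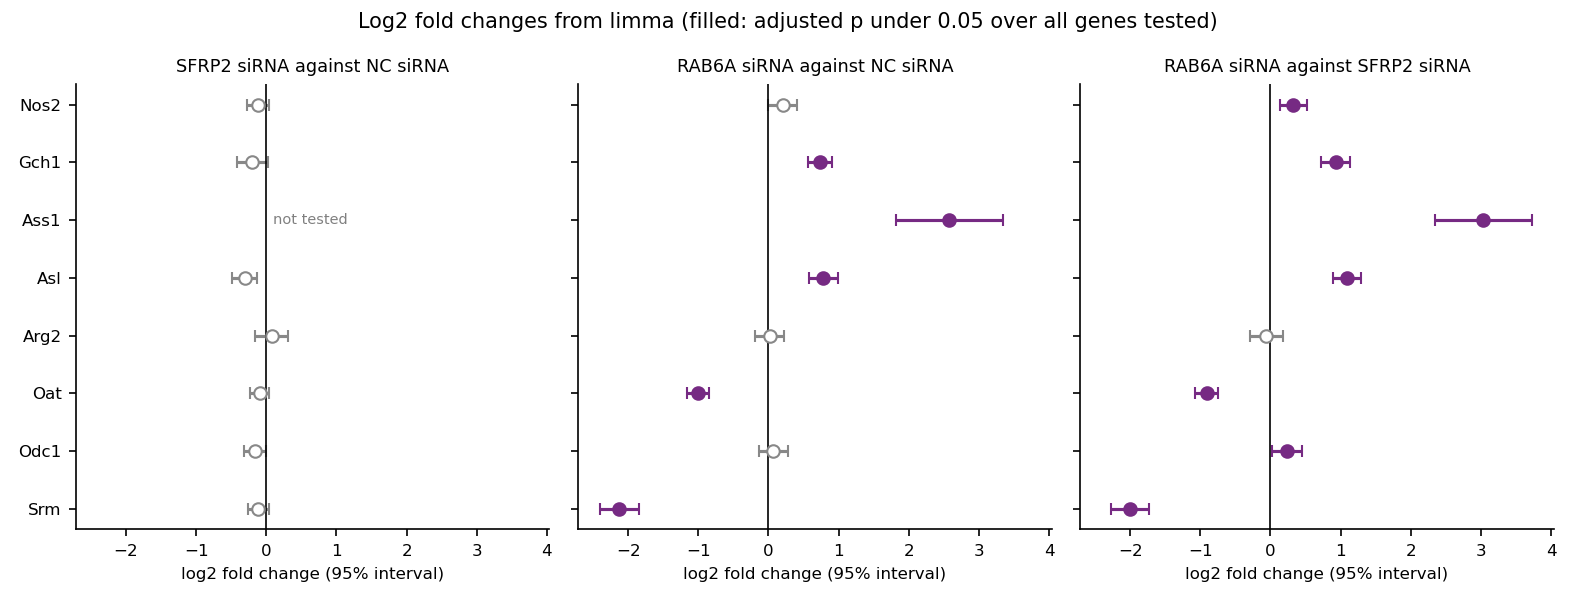
Log2 fold changes of the 8 genes that passed the filter in at least 1 comparison (horizontal axis, limma on log2(FPKM + 0.1)), with 95% intervals; filled points have an adjusted p under 0.05 over all genes tested. All intervals for SFRP2 siRNA against NC lie between -0.48 and 0.31, while in both comparisons with RAB6A siRNA the points of Ass1 and Srm are the farthest from 0.

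The upstream sequences are shown for Gch1 and Ass1, called as higher, and Oat, called as lower with RAB6A siRNA, since RefSeq promoter entries (GRCm38.p6) were at hand for these and for Odc1 only. Each sequence runs 5′ to 3′ on the strand of the gene and ends before the first annotated exon base. Capitals mark matches on either strand to the motifs searched, namely a TATA box (TATAAA), an E-box (CACGTG), an NF-kB pattern (GGGNNNNNCC) and an AP-1 pattern (TGANTCA).
Gch1, chr14:47189414-47189663 (- strand): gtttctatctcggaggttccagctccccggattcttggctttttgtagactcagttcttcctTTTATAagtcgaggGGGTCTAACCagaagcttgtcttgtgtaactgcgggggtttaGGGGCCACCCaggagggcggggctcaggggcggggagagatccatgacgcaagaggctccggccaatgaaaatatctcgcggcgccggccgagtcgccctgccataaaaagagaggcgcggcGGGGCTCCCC
Ass1, chr2:31470020-31470206 (+ strand): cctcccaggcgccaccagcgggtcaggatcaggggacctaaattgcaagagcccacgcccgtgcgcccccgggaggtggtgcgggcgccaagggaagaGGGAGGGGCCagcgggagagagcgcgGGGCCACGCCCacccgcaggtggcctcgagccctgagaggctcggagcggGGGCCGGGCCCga
Oat, chr7:132576399-132576648 (- strand): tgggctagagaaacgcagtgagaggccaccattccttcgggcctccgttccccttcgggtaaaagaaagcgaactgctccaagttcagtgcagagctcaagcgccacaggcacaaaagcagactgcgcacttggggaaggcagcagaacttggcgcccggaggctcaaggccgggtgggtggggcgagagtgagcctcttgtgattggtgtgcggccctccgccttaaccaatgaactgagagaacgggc

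NF-kB is the factor best known for carrying the LPS signal to Nos2 and other inflammatory genes. Positions count from -1 at the base before the start of the gene in RefSeq, which for Ass1 lies downstream of the GENCODE start where the stretch shown ends. The pattern GGGNNNNNCC matched Gch1 at 3 places (-174 to -165, -132 to -123 and -10 to -1), the latter pair reading the same pattern on both strands. Gch1 also held TATAAA on the opposite strand at -188 to -183. In the stretch of Ass1 shown, the NF-kB pattern matched at -152 to -143 and in both orientations, overlapping by all but 1 base, at -126 to -116 and -76 to -66. The rest of the 250 bases before the RefSeq start of Ass1, not shown, held the NF-kB pattern at -63 to -54 and CACGTG at -36 to -31. In the 250 bases before Oat no motif of the 4 was found. The NF-kB pattern is loose, and 45.8% of 32851 promoters of the same length held it, against 12.4% for TATAAA, 6.02% for CACGTG and 6.75% for TGANTCA. Such a match is a description of the letters and not a binding site.

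A list of 54 further genes of the surrounding pathways was then described, of which 52 had a row. With SFRP2 siRNA against NC, 37 were tested and limma called 0, with 8 at an unadjusted p under 0.05 beside 18.5% of all genes, and voom called 0 as well. By the rule of smallest p, the genes named here are Ckb, the brain-type creatine kinase (log2 fold change -0.30, limma, adjusted p = 0.178), Sat1, the spermidine and spermine acetyltransferase (-0.15, adjusted p = 0.212), and Spr, sepiapterin reductase (-0.25, adjusted p = 0.219), among those lower. Among those higher they are Atp13a3, a polyamine transporter (0.18, limma, adjusted p = 0.202), Mtap, which salvages methylthioadenosine (0.13, adjusted p = 0.206), and Amd1, S-adenosylmethionine decarboxylase (0.11, adjusted p = 0.303). None of these 6 passed the threshold.

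With RAB6A siRNA against NC, 39 genes of the list were tested and limma called 31, beside 74.1% of all genes tested. Of the 31, 9 were higher and 22 lower, beside 4777 higher and 4641 lower over all genes. The fold threshold was passed as well by 10 of the 39, beside 30.1% of all genes. None of the 31 changed direction with median-of-ratios scaling, quantile normalization, the correction for GC content and gene length, or voom, which gave no value for Amd1. The median log2 fold change of the 39 was -0.30, beside 0.03 over all genes. Genes named below that did not pass the fold threshold were chosen after their values were seen.

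In arginine transport, all 4 listed genes tested were called as lower, beside 74.1% of all genes called in either direction. Under the filter, Slc7a2 (0.0473 FPKM against 0.0170 with NC) and the listed Slc7a3 (0.0421 against 0.0217, with overlap) had a higher mean with RAB6A siRNA. Slc7a1, the constitutive cationic amino acid transporter, fell by 1.89 on the log2 scale (SE 0.07, limma, adjusted p = 1.34e-06), from 23.1 ± 0.766 FPKM (SD, n = 3) to 6.19 ± 0.429. Slc7a7 and Slc7a6, the light chains of exchangers for cationic amino acids, had log2 fold changes of -0.97 and -0.69, and their heavy chain Slc3a2 had -0.58. At these levels Slc7a1 was far more abundant than Slc7a2 in every group. Slc25a15, a mitochondrial ornithine carrier, fell by 1.02 (SE 0.25, adjusted p = 0.00636), from 0.748 ± 0.0454 FPKM to 0.320 ± 0.0630. It passed the filter only through the NC level. The correction for GC content and gene length gave -0.815, under the fold threshold. Slc25a2, listed beside it, went the other way but was under the filter. It was 0 FPKM with NC and SFRP2 siRNA and 0.534 ± 0.104 with RAB6A siRNA.

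Around the cofactor of Nos2, Gch1 rose together with Gchfr, the feedback regulator of GTP cyclohydrolase, which went from 2.59 ± 0.454 to 9.13 ± 0.941 FPKM (log2 fold change 1.79 ± 0.14, SE, limma, adjusted p = 1.97e-05). The correction for GC content and gene length brought Gchfr under the fold threshold, to 0.90 (limma, adjusted p = 0.000692). Of the 6 listed genes of this cofactor that were tested, 4 were called, 1 higher and 3 lower, beside 74.1% of all genes. Among those lower were Spr (-0.58, limma, adjusted p = 0.0147) and Pts (-0.50, adjusted p = 0.0281). Both calls were lost after the correction for GC content and gene length (limma, adjusted p = 0.0515 and 0.077).

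Among polyamine genes 12 of 13 were called, 6 higher and 6 lower, beside 74.1% of all genes. Among those lower were genes of synthesis beside Srm, namely Amd1 (log2 fold change -1.87 ± 0.10, SE, limma, adjusted p = 3.44e-06), which makes the aminopropyl donor used by Srm, and Sms, spermine synthase (-0.80). Odc1, also a gene of synthesis, was not called (0.07, limma, adjusted p = 0.493). Amd2 (-1.55) is a near-identical copy of Amd1, and reads may have been split between them. It passed the filter only through the NC level, as it was 0.279 ± 0.00549 FPKM with RAB6A siRNA. Higher were the genes of polyamine breakdown, with Sat1 at 251 ± 9.15 FPKM against 122 ± 5.10 in the NC siRNA libraries (1.03 ± 0.06, SE), Smox, spermine oxidase (1.19 ± 0.08), and Paox, polyamine oxidase (0.66), whose call was lost with quantile normalization (0.26, limma, adjusted p = 0.273), which also brought Sat1 to 0.78 and Atp13a3 to -0.96, under the fold threshold. The antizymes Oaz1 (0.69) and Oaz2 (0.62), which bind the protein made by Odc1 and send it to degradation, rose as well. Azin2, an antizyme inhibitor, had the highest log2 fold change of the list (2.92 ± 0.27, SE, adjusted p = 4.27e-05), at 2.09 ± 0.487 FPKM against 0.189 ± 0.0630, and passed the filter only through the RAB6A siRNA group. Atp13a3 fell by 1.03 (SE 0.07, adjusted p = 1.13e-05). Mtap (-0.54, limma, adjusted p = 9e-05) and Atp13a2 (-0.25, adjusted p = 0.0261) were called as lower too. The call of Atp13a2 was lost with quantile normalization (-0.13, limma, adjusted p = 0.186).

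**Figure D4:**
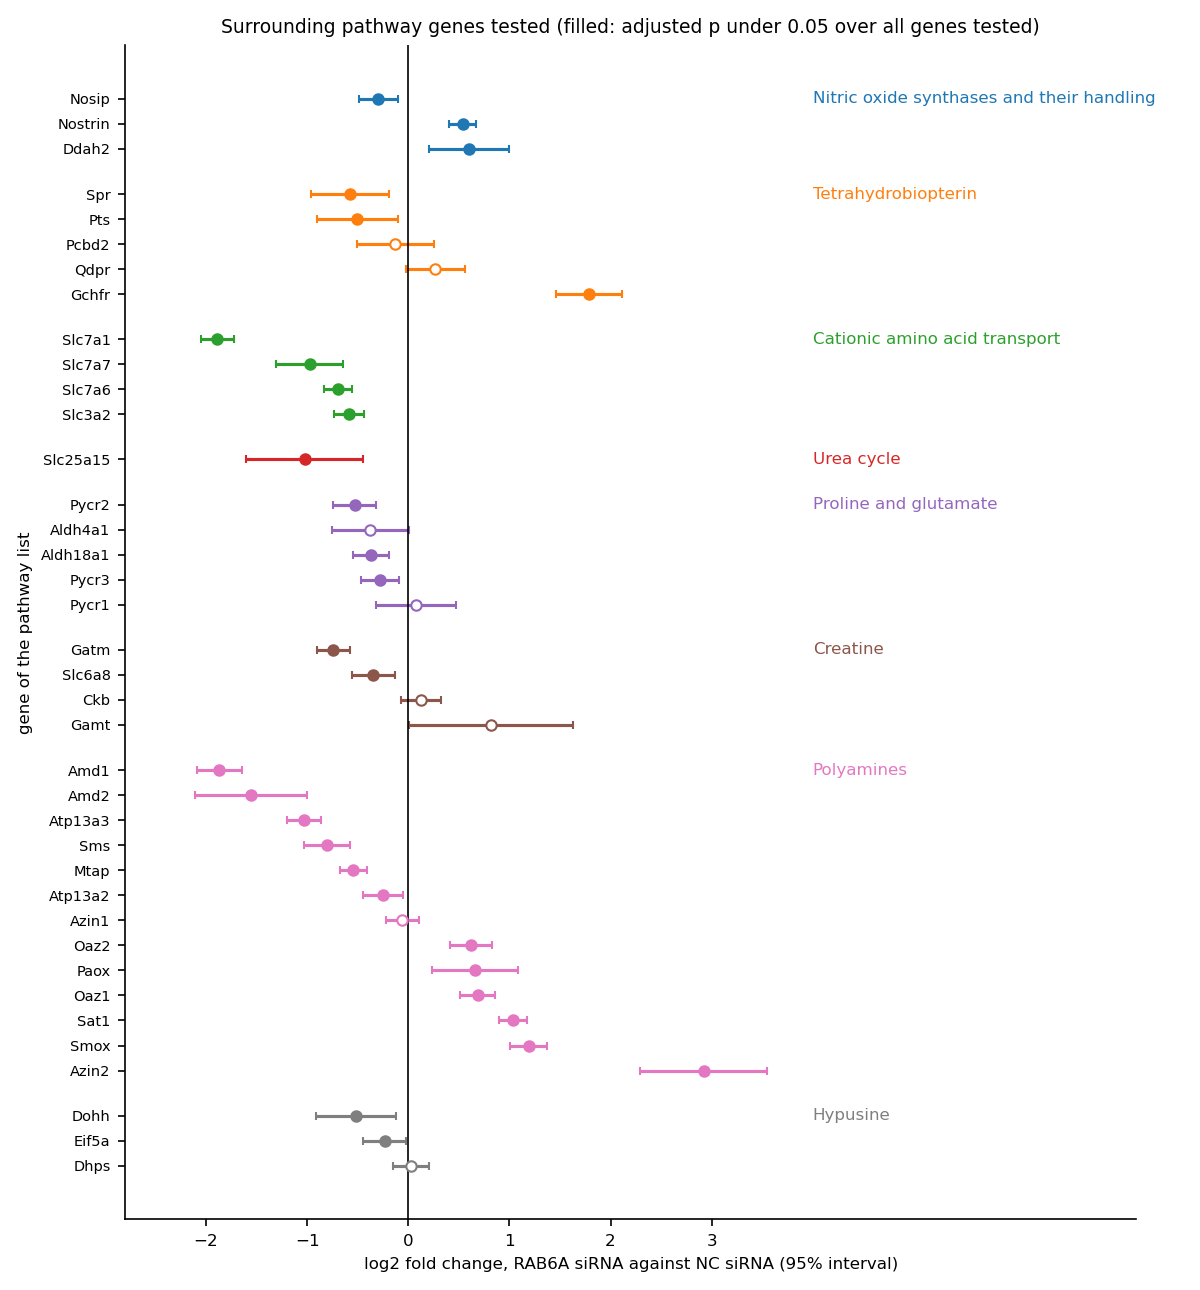
Log2 fold changes for RAB6A siRNA against NC (horizontal axis, with 95% intervals) of the listed pathway genes that passed the filter, all but 1 of 39, grouped by role; filled points have an adjusted p under 0.05 in limma over all genes tested. All 4 transport genes lie below 0, and the polyamine genes split into 6 called as lower and 6 called as higher.

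With RAB6A siRNA against SFRP2 siRNA, limma called 25 of the 39 listed genes, 11 higher and 14 lower, beside 73.4% of all genes tested. This split was 9 and 18 with quantile normalization and 8 and 21 after the correction for GC content and gene length. Slc7a1 (log2 fold change -1.94), Amd1 (-1.98), Amd2 (-1.35), Atp13a3 (-1.21) and Slc25a15 (-1.20) passed the fold threshold as lower, and Azin2 (3.23), Gchfr (1.86), Smox (1.44) and Sat1 (1.18) as higher, a threshold that 31.1% of all genes passed. Amd2, Slc25a15 and Azin2 passed the filter only through the group in which they were higher. After the correction for GC content and gene length, Gchfr (0.90) and Slc25a15 (-0.99) were under the fold threshold, and with quantile normalization Sat1 was (0.88).

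Last, the genes whose levels ran most closely with Nos2, Arg1 and Odc1 over the 9 libraries were looked up by Pearson's r of log2(FPKM + 0.1), as a description of libraries that share their groups and depth. For Nos2 they were the pseudogene Rpl21-ps8 (r = 0.988), Arrb2 (0.973) and Mrps21 (0.971), among 12548 genes. Rpl21-ps8 had a mean of 0.351 FPKM with NC, 0.166 with SFRP2 and 1.22 with RAB6A siRNA. It passed the filter, here a mean of 0.5 FPKM over the 9 libraries, only through the RAB6A siRNA group. For Arg1, which rests on 6 to 24 reads per library, they were Lias (0.970), Pak4 (0.954) and Ncf1 (0.942). For Odc1 they included Actg1 (0.958) and Clpb (0.954). Of the 10 genes in the set, none was among these. As only the genes of highest r were listed, out of 12548 for Nos2, this absence says nothing about the set.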

How the data were processed

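RNA of 9 RAW264.7 libraries (3 per group) was sequenced from paired-end libraries. The authors deposited FPKM per Ensembl gene and library. HISAT2, featureCounts and Subread are named in the submitters' processing notes, and the genome build and the annotation are not given in the sources used here. Names, positions and exon lengths were taken from GENCODE M21 (GRCm38), which held 27533 of the 28137 identifiers. Low FPKM times exon length came in whole steps of 1 read, within 0.03 of a read in all 9 libraries for 27084 genes (98.4%), which gave reads per gene and library totals. The exon length of Nos2 was set to 4439 bases, at which its values are whole, instead of 4412.

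The authors name DESeq2 in their methods, which works on counts and was not used here. Among the fits, only that with voom used the recovered counts. As the deposited values are FPKM, log2(FPKM + 0.1) was tested with limma 3.58.1 (eBayes with an intensity trend) in R 4.3.3, over all genes with a mean of at least 0.5 FPKM in the 6 libraries compared, with Benjamini-Hochberg adjustment. A gene was called at an adjusted p under 0.05, and the fold threshold of the study is an absolute log2 fold change over 1. A fold change on this scale understates the change of low genes. Single genes were compared by exact two-sided permutation tests of FPKM (scipy 1.17.1, Python 3.11.15). Scripts were tested on simulated data. As alternatives, each library was left out in turn, the pseudocount was set to 1 or 0.01, the filter was dropped or raised to 1 FPKM, and values were scaled by median-of-ratios or quantile normalization. Further fits left out the intensity trend, added the replicate number as block, took in all 9 libraries, ran voom on the recovered reads, or corrected for gene length and GC content by natural splines (5 degrees of freedom), the last also together with the block.

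The genes, the pathway list and the markers were chosen with earlier results of these data known. Named were the 10 genes, Sfrp2 and Rab6a, the listed pathway genes past the fold threshold (at most 8 in each direction) or, for SFRP2 siRNA against NC, in each direction the 3 of smallest unadjusted p, and the 3 genes of highest r with Nos2, Arg1 and Odc1. Exceptions are stated where they occur, and 2 genes that this rule names are not reported here. Otc, Nags, Cd3e and Ly6g were not analysed here. Precision of low values is limited by the number of reads, which is given for Slc7a2, Arg1 and Ass1.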

Additional observations from a re-analysis of the deposited data

How the results depend on the processing

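For SFRP2 siRNA against NC, 0 of the 10 genes and 0 of the pathway list were called under all 18 alternatives, while the number of genes called over all rose from 0 to 41 with voom and 1 with the correction for GC content and gene length, and was 0 to 1 when single libraries were left out. For RAB6A siRNA against NC, 4 to 6 of the 10 genes, of which 8 passed the main filter, were called under the alternatives, and 2 or 3 passed the fold threshold. Over all genes, 8445 to 10934 were called under the same alternatives. For RAB6A siRNA against SFRP2 siRNA, 6 or 7 of the genes were called and 2 to 4 passed the fold threshold, beside 8428 to 10684 called over all genes. Of the log2 fold changes of single genes, 385 alternatives kept direction and side of the threshold, 9 lost the call, 6 gained it and 12 reversed. The reversed values under quantile normalization were -0.38 for Nos2 and -0.10 for Odc1 with RAB6A siRNA against NC, and -0.35 for Nos2 and -0.008 for Odc1 with RAB6A siRNA against SFRP2 siRNA. The correction for GC content and gene length, with or without the block, gave 0.02 for Srm with SFRP2 siRNA and -0.19 for Arg2 with RAB6A siRNA, both against NC. Leaving out single libraries gave Arg2 values from -0.02 to 0.137 with SFRP2 siRNA against NC, from -0.038 to 0.08 with RAB6A siRNA against NC and from -0.113 to 0.038 between the knockdowns. The cause was not tested. With the replicate number as a block, 6 instead of 7 of the genes were called for RAB6A siRNA against SFRP2 siRNA, as Odc1 lost its call (limma, adjusted p = 0.0836), and 0 and 5 for SFRP2 and RAB6A siRNA against NC. The deviations of same-numbered libraries correlated with r between -0.085 and 0.048. Whether libraries of the same number share a batch is not stated, and with 3 libraries per group these correlations cannot settle it. The block lowered the SE of Nos2 from 0.068 to 0.037 with SFRP2 siRNA against NC and raised it from 0.087 to 0.103 with RAB6A siRNA against NC. Ass1 gave no value with a filter of 1 FPKM. The depth limits Slc7a2, Arg1 and, outside the RAB6A siRNA group, Ass1.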
